A study of Homo sapiens with 6 samples.

Results

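The genes described here are 10 Wnt target genes of colorectal cells, MYC, CCND1, LGR5, ASCL2, RNF43, ZNRF3, NKD1, SOX9, CD44 and EPHB2. They were chosen by symbol and not by a measured value, but with earlier results of these data known. All 10 were found among the 58302 genes of the deposited RIP-seq table. The study used the human colorectal cancer (CRC) lines SW480 and DLD-1, with a genotype given as WT in the labels and no treatment, to look for the transcripts bound by the acetyltransferase NAT10 and those carrying N4-acetylcytidine (ac4C). By the labels, each line gave 1 Input library of total RNA, 1 library of RNA pulled down with a NAT10 antibody (RIP) and 1 library of RNA pulled down with an ac4C antibody (acRIP), so there were 6 libraries and 1 library per group. With no replicates there was no test, each difference compares libraries and not conditions, and each ± is a counting standard error (SE). Each line is a single established culture model, and neither has a normal colon counterpart here.

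In the canonical Wnt pathway, ligands bind Frizzled and LRP receptors, which spares β-catenin from destruction and lets it switch on genes together with TCF factors. CRC cells commonly carry APC or CTNNB1 mutations that keep this programme on, and NAT10 is known as the writer of ac4C on RNA. The 10 genes cover distinct roles in the pathway. LGR5, ASCL2 and SOX9 mark or maintain crypt stem and progenitor cells, RNF43, ZNRF3 and NKD1 are negative feedback regulators, MYC and CCND1 drive growth and the cell cycle, and CD44 and EPHB2 are cell surface proteins.

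The libraries were set against their labels before the genes were compared. Across 16278 protein-coding genes, the RIP library labelled SW480 had a Pearson r of 0.872 with the Input of its own label and 0.945 with the Input labelled DLD-1, and the RIP library labelled DLD-1 had 0.857 with its own Input and 0.951 with the Input labelled SW480. These are correlations across genes on the log2(FPKM + 1) scale, where FPKM counts fragments relative to transcript length and to library size, and they describe these libraries only. The RIP libraries therefore resembled the Input of the other label more than their own, and the cause was not tested. The RIP/Input ratios of the 10 genes and the counts of the other gene lists are given below with both Inputs, and the libraries keep the names of their labels throughout. Reads solved from the FPKM steps summed to 28087141 in the SW480 RIP library and 23727121 in the DLD-1 RIP library, and to 13681574 and 12620256 in the Inputs of these labels, so the RIP values rest on more reads. The depth of the acRIP libraries is unknown.

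Of 9 markers of colorectal epithelium, between 6 and 8 were at an FPKM of at least 1 in each column, with EPCAM, CDH1, KRT8, KRT18 and KRT19 among them. KRT20 split the columns most. It was at 29.2 FPKM in the Input labelled SW480 and 23.9 FPKM in the RIP library labelled DLD-1, against 0.0427 FPKM in the Input labelled DLD-1 and a listed 0 in the RIP library labelled SW480. CDX1 did not pass 0.672 FPKM in any column. All 5 fibroblast, 4 blood and 3 endothelial markers stayed below 1 FPKM.

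The stem and progenitor genes all had the same arrangement between the columns. SOX9 (ENSG00000125398, chr17:72121020-72126416), a transcription factor of the crypt base and of intestinal progenitors, was at 297 FPKM in the Input labelled SW480 and 58.7 FPKM in the Input labelled DLD-1. In the RIP libraries it was at 51.4 FPKM under the SW480 label and 241 FPKM under the DLD-1 label. The high and low columns thus changed places between Input and RIP. On the log2(FPKM + 1) scale, SOX9 was 2.32 ± 0.03 higher in the Input labelled SW480 than in the Input labelled DLD-1, and between the RIP libraries the same difference was -2.21 ± 0.02. The separate Input columns deposited with the acRIP-seq data gave 205 FPKM under the SW480 label and 44.2 FPKM under the DLD-1 label, the order of the other Inputs.

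ASCL2 (ENSG00000183734, chr11:2268498-2270588), a basic helix-loop-helix factor that controls intestinal stem cell fate, had the same arrangement at a lower level. Its Inputs were at 17.2 FPKM (233 reads) under the SW480 label and 2.72 FPKM (34 reads) under the DLD-1 label. Its RIP libraries were at 3.54 FPKM (97 reads) and 18.2 FPKM (425 reads), in that order. The Input labelled SW480 and the RIP library labelled DLD-1 were therefore the high pair, and the acRIP-table Inputs, at 11.9 and 2.1 FPKM, followed the other Inputs.

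LGR5 (ENSG00000139292, chr12:71439129-71586310), the R-spondin receptor that marks crypt base stem cells, was low in every column. It was at 3.38 FPKM (114 reads) in the Input labelled SW480 and 4.61 FPKM (268 reads) in the RIP library labelled DLD-1. In the Input labelled DLD-1 it was at 0.321 FPKM (10 reads) and in the RIP library labelled SW480 at 0.161 FPKM (11 reads). Without a pseudocount the high Input was 10.5 times the low Input and the high RIP library was 28.7 times the low RIP library, each over a value of about 10 reads. The acRIP-table Inputs were at 2.35 FPKM under the SW480 label and at 0.0352 FPKM, about the value of 1 read, under the DLD-1 label. In RNA from whole cultures, fewer cells that express a gene and less RNA per cell cannot be told apart, which holds for LGR5 and for every level given here.

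**Figure D1:**
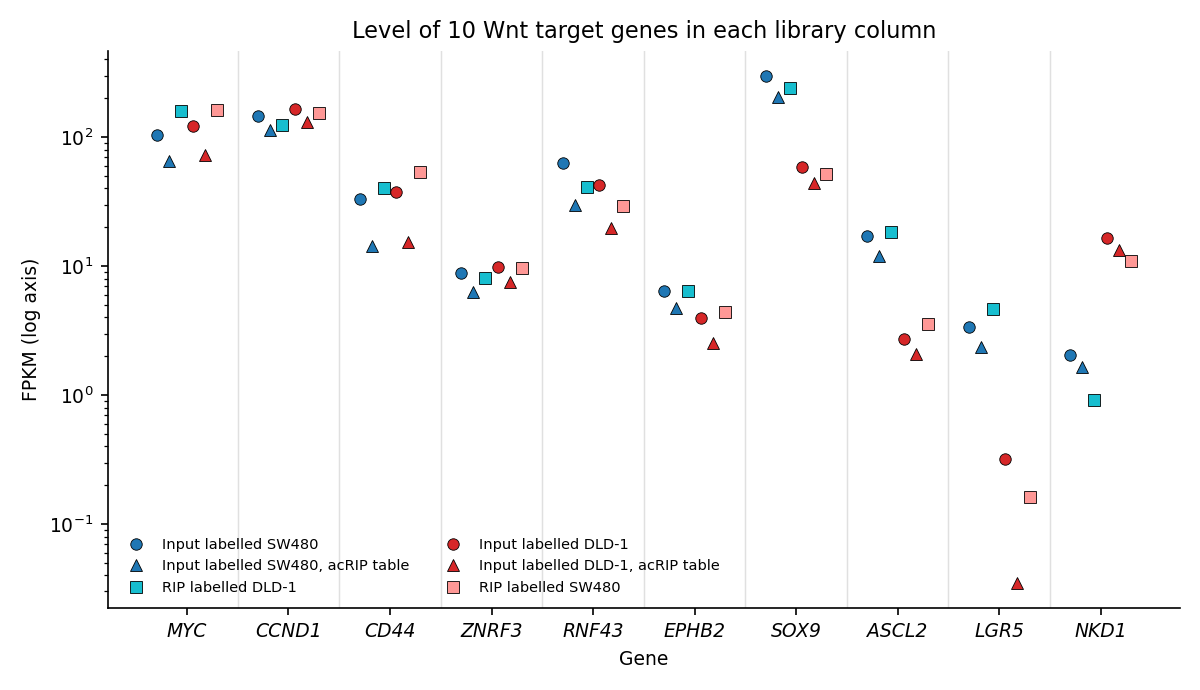
Level of each of the 10 genes in FPKM (log axis) in the 6 columns that give expression. Circles are Inputs of the RIP table, triangles Inputs of the acRIP table and squares RIP libraries. Blue and cyan join the Inputs labelled SW480 with the RIP library labelled DLD-1, and red and pink the Inputs labelled DLD-1 with the RIP library labelled SW480. SOX9, ASCL2 and LGR5 are high in the blue and cyan columns, NKD1 in the red and pink ones.

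The negative regulators did not move as a group. NKD1 (ENSG00000140807, chr16:50548396-50649249), a Dishevelled-binding antagonist that Wnt signalling itself induces, was the mirror image of the stem cell genes. It was at 2.04 FPKM (509 reads) in the Input labelled SW480 and 16.6 FPKM (3842 reads) in the Input labelled DLD-1. Its RIP libraries were at 10.9 FPKM (5509 reads) under the SW480 label and 0.912 FPKM (393 reads) under the DLD-1 label. NKD1 was thus high in the Input labelled DLD-1 and in the RIP library labelled SW480, and the acRIP-table Inputs, at 1.65 and 13.3 FPKM, had the order of the Inputs. The high Input was 8.17 times the low Input and the high RIP library 11.9 times the low one.

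RNF43 (ENSG00000108375, chr17:58352500-58417534) and ZNRF3 (ENSG00000183579, chr22:28883572-29057488) are related membrane E3 ligases that remove Frizzled receptors from the cell surface. RNF43 was at 62.8 FPKM in the Input labelled SW480, 42.4 FPKM in the Input labelled DLD-1, 29.4 FPKM in the RIP library labelled SW480 and 41.2 FPKM in the RIP library labelled DLD-1. ZNRF3 was lower and nearly level, at 8.83 and 9.85 FPKM in the Inputs and 9.60 and 8.01 FPKM in the RIP libraries, each pair in the order SW480 and DLD-1. Per length, RNF43 was above ZNRF3 in all 6 columns.

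The growth genes were among the most abundant of the 10 in every column and differed little between labels. MYC (ENSG00000136997, chr8:127735434-127742951), the transcription factor that is the classic CRC target of β-catenin, was at 104 and 123 FPKM in the Inputs labelled SW480 and DLD-1 and at 161 and 159 FPKM in the RIP libraries. CCND1 (ENSG00000110092, chr11:69641156-69654474), which encodes cyclin D1, was at 146 and 165 FPKM in the Inputs and 154 and 124 FPKM in the RIP libraries, in the same order. MYC stood above 97.3% to 98.6% of detected protein-coding genes and CCND1 above 97.7% to 99.1%, over the 6 columns. MYC was higher in either RIP library than in either Input, whereas the CCND1 columns interleaved.

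The surface genes also differed by less than 2-fold between labels. CD44 (ENSG00000026508, chr11:35139171-35232402), the hyaluronan receptor used as a stem cell marker in CRC, was at 33.2 and 37.4 FPKM in the Inputs labelled SW480 and DLD-1 and at 53.4 and 39.98 FPKM in the RIP libraries. EPHB2 (ENSG00000133216, chr1:22710838-22921500), a receptor tyrosine kinase that positions cells along the crypt axis, was at 6.42 and 3.99 FPKM in the Inputs and at 4.38 and 6.41 FPKM in the RIP libraries. CD44 was above every Input in both RIP libraries. EPHB2 had the arrangement of SOX9 at a smaller size, with an Input difference of 0.57 ± 0.06 and a RIP difference of -0.46 ± 0.04 on the log2 scale.

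Between the Inputs, 3 of the 10 genes were at least 2-fold higher under the SW480 label (SOX9, ASCL2 and LGR5) and 1 was at least 2-fold lower (NKD1), where 11.5% and 16.7% of the 15086 genes with a mean FPKM of at least 1 over the RIP table were past that size. LGR5 passed this filter through its high columns. In the acRIP table the same 4 genes were past 2-fold in the same directions, against 11.5% and 14.5% of genes. Between the RIP libraries, NKD1 was at least 2-fold higher under the SW480 label and SOX9, ASCL2 and LGR5 were lower, against 11.8% and 7.74% of genes. Inputs and RIP libraries that were both at least 2-fold apart, in opposite directions, were found for these 4 of the 10 genes and for 13.9% of all genes, while the same direction was found for 0 of the 10 genes and 0.471% of all genes.

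NAT10 RIP over Input was then taken within each label, as log2((RIP FPKM + 1)/(Input FPKM + 1)), which understates the change of low genes. Under the SW480 label, NKD1 was higher in RIP than in Input, by 1.97 ± 0.05. SOX9 (-2.51 ± 0.02), ASCL2 (-2.01 ± 0.14), LGR5 (-1.92 ± 0.12) and RNF43 (-1.07 ± 0.03) were lower by more than 2-fold. Of the 9 members with an Input FPKM of at least 1 under both labels, which leaves LGR5 out, 1 was higher and 3 were lower, where 15.6% and 16.0% of 12324 genes were. Over the genes with a mean FPKM of at least 1, which keeps all 10 members, the counts were 1 and 4 of 10 against 21.0% and 16.6%.

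Under the DLD-1 label the same genes had the opposite sign. ASCL2 (2.37 ± 0.19), LGR5 (2.09 ± 0.13) and SOX9 (2.02 ± 0.03) were higher in RIP than in Input, and NKD1 was lower, at -3.21 ± 0.04. These were 2 higher and 1 lower of 9 members, where 15.1% and 19.2% of 12324 genes were, and 3 and 1 of 10 against 17.4% and 22.5% of the genes with a mean FPKM of at least 1. RNF43 was at -0.04 ± 0.03 here, and its value under the SW480 label fell short of 2-fold with a pseudocount of 5 (-0.98) and over the acRIP-table Input of that label (-0.52). LGR5, the gene with the fewest reads, was at -0.70 and 0.85 under the SW480 and DLD-1 labels with a pseudocount of 5. Ratios of opposite sign under the labels were found for 7 of the 10 genes and for 47.6% of the 15086 genes. The differences of these ratios between labels were not tested.

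MYC and CD44 were above 0 under both labels, MYC at 0.63 ± 0.03 and 0.36 ± 0.03 and CD44 at 0.67 ± 0.03 and 0.09 ± 0.04, in the order SW480 and DLD-1. CCND1 was at 0.08 ± 0.02 and -0.41 ± 0.02, ZNRF3 at 0.11 ± 0.05 and -0.27 ± 0.06, and EPHB2 at -0.46 ± 0.05 and 0.57 ± 0.06. None of these 5 genes was past 2-fold under either label. The median of the 10 members was -0.19 under the SW480 label and 0.23 under the DLD-1 label, beside 0.13 and -0.04 over the 15086 genes. Protein-coding genes as a whole had a median of 0.18 and 0.07, over those with an Input FPKM of at least 1 under both labels.

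When the Inputs of the RIP table were exchanged between labels, no member was past 2-fold in either RIP library. The RIP library labelled SW480 had 0 of 10 members higher or lower over the Input labelled DLD-1, where 11.2% and 11.8% of the 15086 genes were. The RIP library labelled DLD-1 had 0 of 10 over the Input labelled SW480, against 11.3% and 11.5%. All 10 members lay within 2-fold in both, as did 67.3% of the 15086 genes, while 43.5% of genes lay within 2-fold of both Inputs of their own label. SOX9 was then at -0.19 ± 0.03 and -0.30 ± 0.01, ASCL2 at 0.29 ± 0.21 and 0.08 ± 0.11, LGR5 at -0.19 ± 0.13 and 0.36 ± 0.13, and NKD1 at -0.57 ± 0.03 and -0.67 ± 0.06, in the order of the RIP labels SW480 and DLD-1.

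With the Inputs exchanged, 8 of the 10 genes had the same sign in both RIP libraries, as did 74.6% of the 15086 genes, the exceptions being LGR5 and EPHB2 (0.11 ± 0.06 and -0.00 ± 0.05). MYC (0.39 ± 0.03 and 0.61 ± 0.03) and CD44 (0.50 ± 0.03 and 0.26 ± 0.04) were above 0, as they were over the Inputs of their own label. RNF43 (-0.51 ± 0.03 and -0.60 ± 0.03), NKD1, SOX9 and CCND1 (-0.10 ± 0.02 and -0.23 ± 0.02) were below 0, and so was ZNRF3 (-0.03 ± 0.05 and -0.12 ± 0.06), within its error in the SW480 RIP library. The mean absolute log2 difference over the 10 members was 1.14 for either RIP library over its own Input, and 0.29 and 0.32 with the Inputs exchanged. Whether the labels of libraries were exchanged or NAT10 bound these transcripts in opposite ways in the lines cannot be told apart from these 4 columns.

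**Figure D2:**
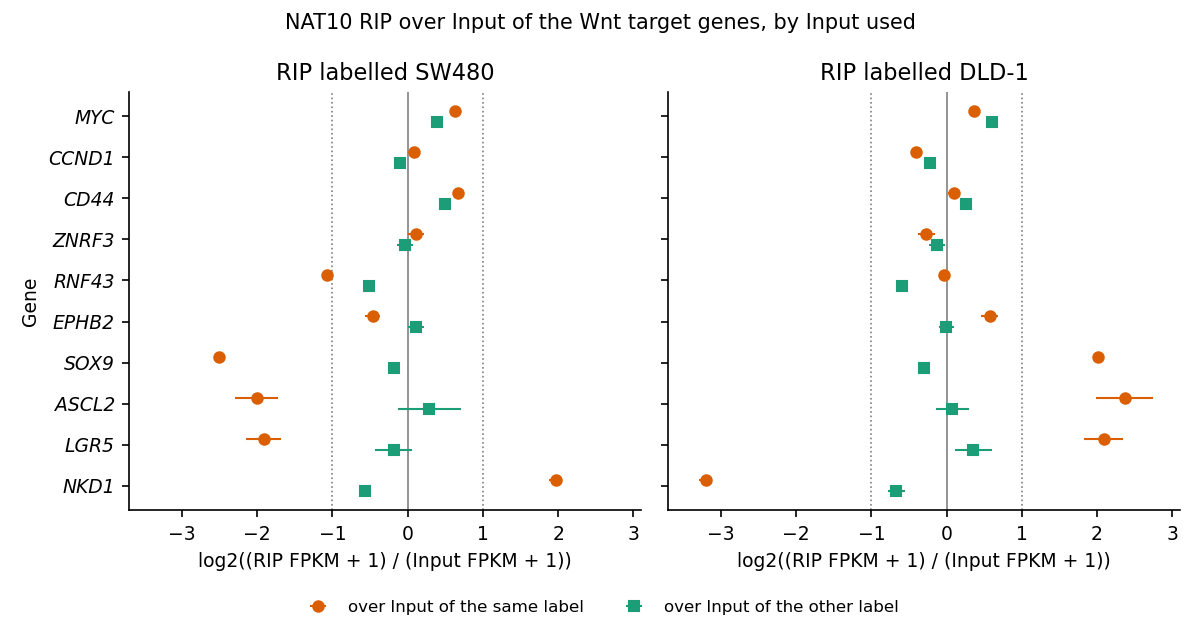
NAT10 RIP over Input of the 10 genes as log2((RIP FPKM + 1)/(Input FPKM + 1)), for the RIP library labelled SW480 (left) and DLD-1 (right). Orange circles use the Input of the same label and green squares the Input of the other label. Bars are 95% counting intervals and dotted lines mark 2-fold. The orange points of SOX9, ASCL2, LGR5 and NKD1 lie past 2-fold on opposite sides in the panels, and every green square lies between the dotted lines.

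The Inputs of the acRIP table had relative depths of 0.372 and 0.365 of the RIP library labelled SW480, against 0.493 and 0.456 for the other Inputs. Whether they hold separate reads or the same reads counted in another way was not tested. The labels list 1 Input library per line and do not tell which of the columns stands for it. The level of a member in the acRIP table relative to the RIP table was between 0.586 and 0.812 for 7 of the genes in both labels. CD44 (0.435 and 0.411) and RNF43 (0.471 and 0.464) were lower in that table under both labels. LGR5 was at 0.696 under the SW480 label and 0.110, from very few reads, under the DLD-1 label. These ratios are between separately scaled tables, and the deposited table does not name its unit, which was read here as FPKM.

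Scaled to the median of the RIP table, these Inputs gave the same picture for the 4 genes with opposite signs and a larger value for CD44. Over the acRIP-table Input of its own label, the SW480 RIP library had 2 of 9 members higher (NKD1 and CD44) and 2 lower (SOX9 and ASCL2), against 19.1% and 13.8% of the 12324 genes. The DLD-1 RIP library had 2 higher (SOX9 and ASCL2) and 1 lower (NKD1), against 18.0% and 16.7%. With the acRIP-table Inputs exchanged between labels, the SW480 RIP library had 1 higher (CD44) and 0 lower, against 12.3% and 9.92%, and the DLD-1 RIP library had 0 of either, against 12.7% and 9.86%. CD44 was at 1.32 and 1.17 in the SW480 RIP library and at 0.77 and 0.91 in the DLD-1 RIP library, over the scaled Input of its own and of the other label. MYC was at 0.77 and 0.57 and at 0.55 and 0.75, in the same order. MYC and CD44 were therefore above 0 in both RIP libraries over all 4 Input columns, which may not be separate libraries. The share of all genes for which this holds was not computed. Centred on the median of protein-coding genes, over the RIP-table Input of the own label, CD44 was at 0.49 and 0.03. MYC was then at 0.45 and 0.30, each in the order SW480 and DLD-1. The size of the CD44 value moved with the table used.

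Genes with nearly the same profile as a member over the 6 columns were sought for the 3 members whose Inputs were at least 4-fold apart in both tables on the log2(FPKM + 1) scale, by Euclidean distance of centred log2(FPKM + 1) among 12856 protein-coding genes. LGR5, at 1.73 and 1.70 on that scale, was below this size. The nearest to ASCL2 were GPRC5A, at a distance of 0.234, and CEMIP, at 0.254. The nearest to NKD1 were SOGA1 (0.229) and TMEM163 (0.249), and the nearest to SOX9 were PRKCH (0.296) and HIST1H2AH (0.303). GPRC5A was at 69.7 FPKM in the Input labelled SW480 and 68.1 FPKM in the RIP library labelled DLD-1, against 14.5 and 15.2 FPKM in the other Input and RIP columns. These genes were picked for their likeness to a member in the same columns, so a shared arrangement followed from the choice.

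Among 31 other Wnt target genes, 25 had a mean FPKM of at least 1. Under the SW480 label 8 of the 25 were at least 2-fold higher in RIP than in Input and 7 were lower, against 21.0% and 16.6% of the 15086 genes. Under the DLD-1 label 5 were higher and 11 lower, against 17.4% and 22.5%. Some of the 25 passed the mean filter through their high columns. With an Input FPKM of at least 1 under both labels, 20 genes remained. Of these 20, 4 were higher and 7 lower under the SW480 label, against 15.6% and 16.0% of the 12324 genes. Under the DLD-1 label 4 of the 20 were higher and 7 lower, against 15.1% and 19.2%. With the Inputs of the RIP table exchanged, the counts of the 25 fell. They were 1 higher and 3 lower in the SW480 RIP library, against 11.2% and 11.8%. In the DLD-1 RIP library they were 0 higher and 2 lower, against 11.3% and 11.5%. The medians of the 25 were -0.02 and 0.02 over the Inputs of the own label and 0.04 and -0.03 over the exchanged ones. For 12 of the 25, Inputs and RIP libraries were both at least 2-fold apart in opposite directions, against 13.9% of the 15086 genes. The same direction was found for 0 of the 25, against 0.471%. Some of these 12, among them DKK4, passed the mean filter through their high columns. The opposite pairs took in AXIN2, the universal feedback scaffold of the pathway, which was at 57.7 and 21.8 FPKM in the Inputs labelled SW480 and DLD-1 and at 20.2 and 41.4 FPKM in the RIP libraries. They also took in the secreted antagonists NOTUM, at 1.18 and 22.8 FPKM in the Inputs and 13.6 and 1.41 FPKM in the RIP libraries, and DKK4, listed at 0 and 107 FPKM in the Inputs and at 163 and 0.266 FPKM in the RIP libraries. AXIN2, NOTUM and DKK4 were named after their values were seen.

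Past 2-fold in the same direction under both labels were FOSL1 and JUN, both subunits of the AP-1 transcription factor, and both lower in RIP. FOSL1 was at 184 and 214 FPKM in the Inputs and 73.6 and 67.9 FPKM in the RIP libraries, which gave -1.31 and -1.64 on the log2 scale. JUN was at 76.1 and 57.9 FPKM in the Inputs and 25.7 and 21.6 FPKM in the RIP libraries, which gave -1.53 and -1.38. With the Inputs exchanged both stayed lower, FOSL1 at -1.53 and -1.42 and JUN at -1.14 and -1.77. These 2 genes therefore kept their sign and stayed past 2-fold with either Input, unlike the 4 members past 2-fold under both labels. The share of all genes that did so was not computed.

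Among 36 receptors, ligands and partners of the members, 29 had a mean FPKM of at least 1. Under the SW480 label 9 of the 29 were at least 2-fold higher in RIP and 4 lower, and under the DLD-1 label 2 were higher and 5 lower, beside the same shares of all genes. With the Inputs exchanged, 0 were higher or lower in the SW480 RIP library, and 2 were higher and 0 lower in the DLD-1 RIP library. None was past 2-fold in the same direction under both labels, a rule for which the share of all genes was not computed. The R-spondins RSPO1, RSPO2, RSPO3 and RSPO4, ligands of LGR5, did not pass 0.0953 FPKM in any column. LGR4 and LGR6, the receptors related to LGR5, were at 2.46 and 3.51 FPKM in the Input labelled SW480 and 5.14 and 3.32 FPKM in the Input labelled DLD-1, so that LGR5 was the lowest of these receptors per length in the Input labelled DLD-1 and lay between them in the Input labelled SW480. The ephrins EFNB1 and EFNB2, ligands of EPHB2, were split between the labels and were named after their values were seen. EFNB1 was at 2.95 and 44.7 FPKM in the Inputs and 54.7 and 2.29 FPKM in the RIP libraries, and EFNB2 at 26.9 and 0.548 FPKM in the Inputs and 0.545 and 23.1 FPKM in the RIP libraries, in the order SW480 and DLD-1. NKD2, the paralog of NKD1, was nearly level, at 10.0 and 12.2 FPKM in the Inputs and 7.94 and 7.98 FPKM in the RIP libraries.

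**Figure D3:**
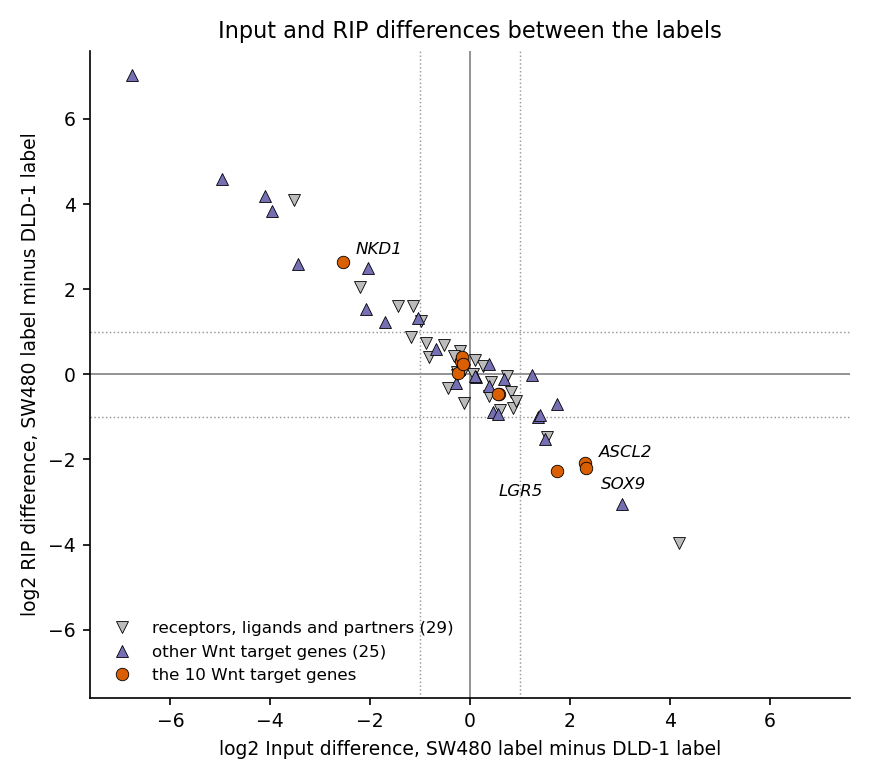
Difference between the labels, SW480 minus DLD-1, in log2(FPKM + 1), of the Inputs (horizontal axis) and of the RIP libraries (vertical axis). Orange circles are the 10 Wnt target genes, purple triangles 25 other Wnt target genes and grey triangles 29 receptors, ligands and partners, and dotted lines mark 2-fold. Genes past 2-fold on both axes lie in the upper left or lower right, among them NKD1 (upper left) and SOX9, ASCL2 and LGR5 (lower right).

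The acRIP-seq data were deposited as peaks, called per label and on pooled libraries. MYC, CCND1, ASCL2, CD44 and EPHB2 had a peak in both labels and in the pooled list, and LGR5, RNF43, ZNRF3, NKD1 and SOX9 had none in any list. Under each label and in the pooled list 5 of the 10 genes thus had a peak, where 47.7%, 52.6% and 59.5% of the 11605 protein-coding genes with a mean FPKM of at least 1 did, in the order SW480, DLD-1 and pooled. A peak in both labels was listed for 5 of the 10 genes, against 37.2% of these genes, and a peak in neither label for 5 of the 10 against 36.8%. All of these genes had a peak in both labels or in neither. SOX9 had none at acRIP-table Inputs of 205 and 44.2 FPKM, and RNF43 none at 29.6 and 19.7 FPKM. Among the 458 protein-coding genes with an acRIP-table Input of at least 40 FPKM under both labels, a size chosen after the level of SOX9 was seen, 11.4% likewise had no peak in either list and 79.7% had one in both. A missing peak says only that the authors' caller listed none at a depth that is unknown.

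The members had 11 peaks in the list labelled SW480, of which 8 were listed in a 3′-UTR and 3 in a coding sequence (CDS), and 13 peaks in the list labelled DLD-1, of which 11 were in a 3′-UTR and 2 in a CDS. Of all listed peaks, 53% in the list labelled SW480 and 41.5% in the list labelled DLD-1 were in a 3′-UTR. The 3′-UTR share of the members was 72.7% and 84.6%, but these peaks lie on 5 genes and are not independent. All of the peaks lay within the RefSeq bounds of their gene. The median fold of acRIP over Input was 16.7 for the members and 19.5 for all peaks in the list labelled SW480, and 26.0 and 14.6 in the list labelled DLD-1. Peaks of the 2 labels were taken as shared at an overlap of at least 1 base on the same strand. Under the SW480 label 9 of the 11 member peaks were shared, as were 55.3% of all 9536 peaks. Under the DLD-1 label 9 of the 13 were shared, as were 36.5% of all 13964 peaks. With an overlap of 50% of each peak, 6 member peaks were shared under each label, and the share of all peaks was not computed.

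**Figure D4:**
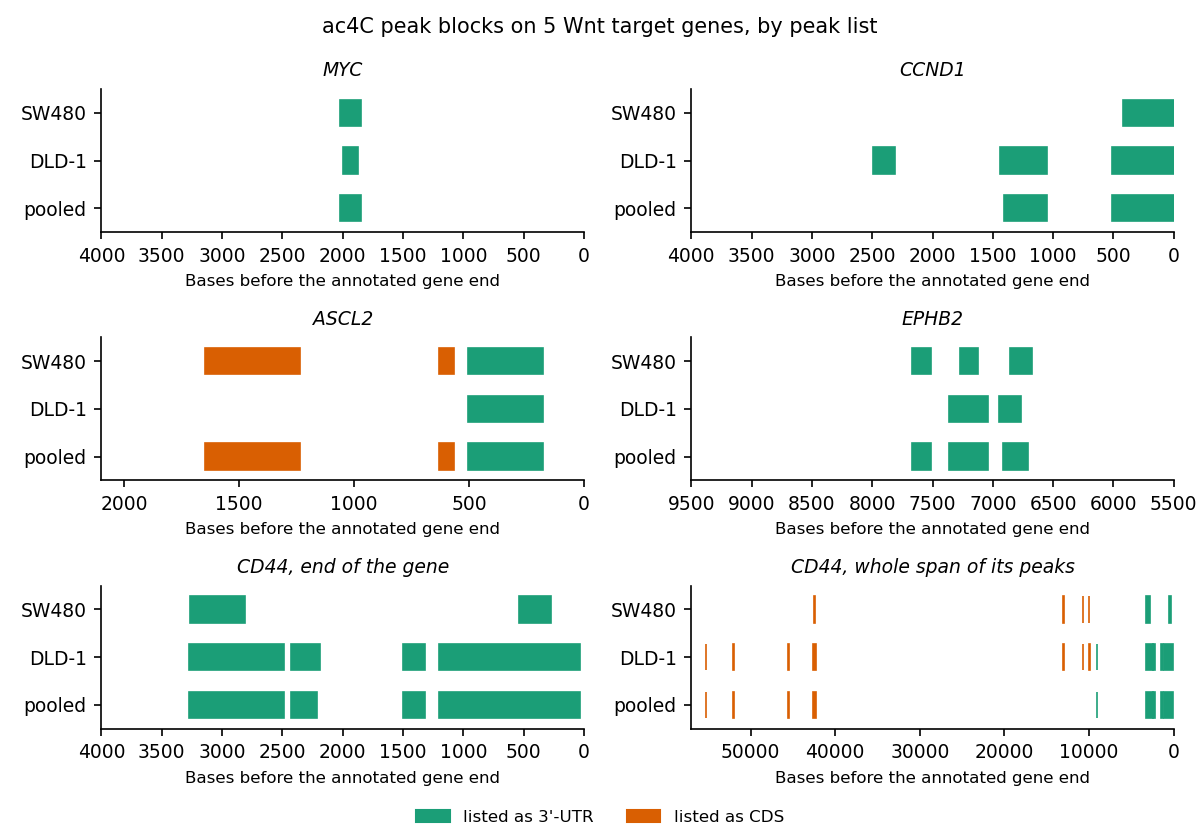
Listed ac4C peak blocks on the 5 genes with peaks, by distance in bases before the annotated gene end, for the lists labelled SW480 and DLD-1 and the pooled list. Green blocks were listed as 3′-UTR and orange blocks as CDS, and CD44 is drawn for its last 4 kb and for the whole span of its peaks. The ASCL2 coding peak is absent from the list labelled DLD-1, and CD44 has more blocks there.

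CD44 carried the most peaks, 4 in the list labelled SW480 and 6 in the list labelled DLD-1. Its strongest peak, at chr11:35223302-35229918 under the DLD-1 label, joined 2 blocks into the 3′-UTR with a fold of 455, above 99.5% of the peaks of that list. The peak it overlapped under the SW480 label, chr11:35229140-35229589, had a fold of 29.7. A coding peak at chr11:35219287-35222464 had a fold of 142 under the DLD-1 label and its counterpart, chr11:35219346-35222434, 20.8 under the SW480 label. Further upstream, the peak chr11:35177117-35190180 of the list labelled DLD-1 took in 4 blocks and had a fold of 77.5, against 1.63 for chr11:35189941-35190060 under the SW480 label, a fold above only 0.147% of that list. Near the gene end the folds were closer, with 70.8 for chr11:35231863-35232133 under the SW480 label and 81.8 for chr11:35231205-35232372 under the DLD-1 label. All 4 shared CD44 pairs thus had the higher fold under the DLD-1 label, at acRIP-table Inputs of 14.4 and 15.4 FPKM. The SW480 peaks lay within the DLD-1 peaks and covered 55.6%, 67%, 21.1% and 23.2% of their bases, in the order given. The folds of a pair therefore belong to regions of unlike size.

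ASCL2 had a 3′-UTR peak with identical bounds under both labels, chr11:2268674-2269003 on the minus strand, that ended 176 bases before the annotated gene end. Its fold was 9.58 under the SW480 label and 26.0 under the DLD-1 label. A coding peak of 2 blocks, chr11:2269062-2270146, was listed under the SW480 label with a fold of 83.3, above 85.4% of that list, and in the pooled list with 58.5. The list labelled DLD-1 had no such peak. The Input of ASCL2 was higher under the SW480 label in both tables, and the part of its level in this difference was not tested.

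EPHB2 had all of its peaks listed in a 3′-UTR, 6677 to 7515 bases before the annotated gene end. The list labelled SW480 held 3 short peaks, chr1:22913835-22913985 (fold 22.9), chr1:22914225-22914374 (16.7) and chr1:22914644-22914823 (11.1). The list labelled DLD-1 held 2, chr1:22914135-22914464 (51.9) and chr1:22914554-22914734 (7.47), which overlapped the last 2 of these. The first EPHB2 peak was listed under the SW480 label and in the pooled list, where its fold was 23.5.

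CCND1 had 1 peak under the SW480 label, chr11:69654054-69654474, with a fold of 15.8. The list labelled DLD-1 held 3, of which chr11:69653964-69654474 overlapped it with a fold of 5.62, and both ended at the last annotated base of the gene. The other two, chr11:69651985-69652164 and chr11:69653034-69653424, had folds of 2.57 and 11.6. MYC had a single 3′-UTR peak in each list, chr8:127740929-127741107 with a fold of 8.56 under the SW480 label and chr8:127740959-127741078 with a fold of 5.11 under the DLD-1 label. The MYC folds were above 19.7% and 8.85% of their lists, so MYC, at a high level, had peaks of low fold, while CCND1 and MYC were the genes whose shared peak had the higher fold under the SW480 label together with 1 EPHB2 pair.

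**Figure D5:**
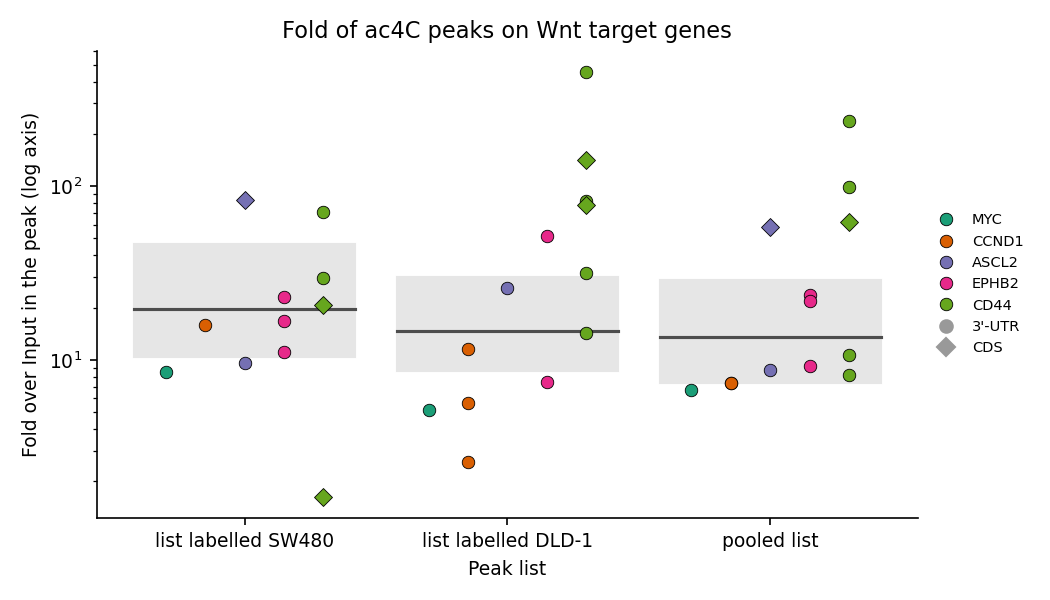
Fold of acRIP over Input (log axis) of each member peak in the lists labelled SW480 and DLD-1 and in the pooled list, coloured by gene, with circles for 3′-UTR and diamonds for CDS. The dark line is the median of all peaks in the list, at 19.5, 14.6 and 13.6, and the grey box spans their middle quartiles. CD44 has the highest fold under the DLD-1 label (455) and in the pooled list (239), and MYC lies below the box in all 3.

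The lists also count sites of the pattern CNNCNNCNNCNN, where N is any base, which their header names as the motif. A site was listed in 9 of the 11 member peaks under the SW480 label and 11 of the 13 under the DLD-1 label, against 56.2% and 55.1% of all peaks. Per 1000 bases the members had 7.55 and 5.30 sites and all peaks 5.13 and 4.64. The ASCL2 coding peak held 10 sites, 20.9 per 1000 bases, and its 3′-UTR peak 3. The MYC peak held 0 in every list, and the CCND1 peak at the gene end held the same 3 sites under both labels. Such counts describe the letters within the peak only.

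Of the 25 other Wnt target genes with a mean FPKM of at least 1, 7 had a peak under the SW480 label, 10 under the DLD-1 label and 6 under both, against 47.7%, 52.6% and 37.2% of the protein-coding genes. Of the 29 receptors, ligands and partners, 11, 16 and 8 did. CCND2, a D-type cyclin like CCND1, L1CAM, a cell adhesion gene, and DKK1, a secreted antagonist, were named after their values were seen. CCND2 was listed at 0 in both Inputs labelled SW480 and had 5 peaks in the list labelled SW480, with a fold of up to 70.8, and 10 peaks in the list labelled DLD-1. L1CAM, also at 0 in both of those Inputs, had 4 peaks under the SW480 label with a fold of up to 209, and 9 under the DLD-1 label. In the RIP library labelled SW480 CCND2 and L1CAM were at 19.6 and 13.4 FPKM. DKK1 was listed at 0 in all 4 Input columns and had 1 peak under the SW480 label and 2 under the DLD-1 label. EFNB1, low in the Inputs labelled SW480, had 2 peaks in that list and 0 in the list labelled DLD-1, and EFNB2, high in those Inputs, had 0 and 1. Peaks were thus listed on genes that the Inputs of the same label list at 0. These were CCND2, L1CAM and DKK1 under the SW480 label and DKK1 under the DLD-1 label, and the cause was not tested. The members with peaks could not show such a conflict, because none of their Inputs was listed at 0. The lowest of their acRIP-table Inputs was that of ASCL2, at 2.1 FPKM under the DLD-1 label. Whether the acRIP and Input labels match for the members was not tested.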

How the data were processed

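The authors deposited an FPKM table of RIP and Input for each line, a table of Inputs from the acRIP-seq work (unit not named, read as FPKM), and ac4C peaks per label and pooled. Each peak has a p-value, a fold (ratio of acRIP to Input) and a log10 FDR score from the authors. The 3 deposited ratio columns of the RIP table were not used. The submitters' processing notes name cutadapt 2.5 and HISAT2 2.1.0 with GRCh38, hg38 and GRCm38. The counting tool and peak caller are not given in the sources used here, nor whether strand was used. Samples were grouped by title.

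Whole reads were solved from FPKM ratios between columns (tolerance 0.003, 23515 of 23515 genes above 0 in at least 2 columns) and are the smallest that give the values. They gave the SEs and intervals, which cover counting error only. The solver was tested on simulated data, where the smallest whole reads with the true ratios counted as right. That test could not tell whether the true reads were a whole multiple of those solved. Ratios used log2((RIP FPKM + 1)/(Input FPKM + 1)) and a size of 2-fold. There was no test. Peak starts, counted from 0, were moved by 1 base, and gene bounds are those of RefSeq on GRCh38.p14. Python 3.11.15, numpy 2.4.6, pandas 2.3.3 and matplotlib 3.10.9 were used.

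All members were named. Of the other lists, genes past 2-fold in the same direction under both labels were named, and the 2 nearest profiles of members with Inputs at least 4-fold apart. The members and lists were chosen with earlier results of these data known. The alternatives were other pseudocounts, centring, Inputs, thresholds and filters, stricter peaks and more overlap, and the background over genes by mean FPKM was added after seeing the data.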

Additional observations from a re-analysis of the deposited data

Results flagged for a closer look

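For 7 of the 10 genes the ratio of RIP to Input had opposite signs under the labels, as it had for 47.6% of the 15086 genes with a mean FPKM of at least 1, each with 1 library per group, so the difference was not tested. The log2 ratio under the SW480 label minus that under the DLD-1 label was -4.53 for SOX9, -4.38 for ASCL2, -4.00 for LGR5, 5.17 for NKD1, -1.03 for EPHB2, 0.48 for CCND1 and 0.38 for ZNRF3. With the Inputs of the RIP table exchanged between labels, 5 of these 7 genes (SOX9, ASCL2, NKD1, CCND1 and ZNRF3) had the same sign in both RIP libraries.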

How the results depend on the processing

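No paired analysis was possible because each group has 1 library and the labels carry no replicate numbers, so leaving out a library was not possible either. Of the summary counts, 43 values under alternatives were within 1.5 times the main count and 18 were not. The 43 include the peak counts per list under the stricter overlap, which that setting could not change. Over the Input of the other label, 0 members were past 2-fold in place of 1 higher and 4 lower under the SW480 label and of 3 higher and 1 lower under the DLD-1 label. With the acRIP-table Inputs exchanged, 0 were lower under the SW480 label and 0 higher or lower under the DLD-1 label, and with those of the same label 2 were higher under the SW480 label. A 1.5-fold threshold gave 3 higher and a pseudocount of 5 gave 2 lower under the SW480 label, without LGR5 and RNF43. With an FPKM of at least 1 in both, 2 members differed between the RIP libraries in place of 4. Among ratios past 2-fold, signs changed over the Input of the other label and over its acRIP-table counterpart for ASCL2 (0.29 and 0.13) and NKD1 (-0.57 and -0.83) under the SW480 label and SOX9 (-0.30 and -0.30) under the DLD-1 label, and over the latter Input for LGR5 (0.14) under the SW480 label. Smaller ratios changed sign in 8 values with the Inputs exchanged (CCND1, ZNRF3 and EPHB2 under the SW480 label and EPHB2 under the DLD-1 label), and in 4 other values (CCND1, ZNRF3 and RNF43). The cause was not tested. Peaks with a p-value below the list median were 7 of 11 under the SW480 label, with 5 shared under each label. Those whose fold reached the list median were 5 of 11 and 7 of 13, with 3 shared under each. With an overlap of 50% of each peak, 6 in place of 9 were shared under each label, which counts among the 43. Ratios of single genes moved beyond their 95% counting interval in 77 of 120 values under alternatives. Reads limit LGR5 and ASCL2 most.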
